A study of Rattus norvegicus with 9 samples.

Results

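The genes described here are those of sterol and fatty acid synthesis and their regulators. They were chosen by a list of 36 symbols, each taken as the probe set with the highest mean where a gene had several, and 34 of them were measured among 14497 genes. Hmgcs1 and Srebf1 were not analysed here, because the probe annotation pairs no single-gene probe set with either symbol. The 34 genes fall by role into 7 of the mevalonate and isoprenoid steps, 11 of the steps from squalene to cholesterol, 5 SREBP regulators and sterol carriers, 6 of fatty acid synthesis and 5 of elongation and desaturation.

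RNA came from liver cells of F344 rats on Affymetrix whole-transcript arrays, 1 array for each of 9 preparations and 3 preparations for each of 3 groups. The first group held hepatocytes of rats aged 5 to 6 weeks, freed by collagenase perfusion, with no sorting stated. The other groups were fetal liver cells of embryonic day 19, freed by collagenase and purified with antibodies to leucine aminopeptidase (LAP) and to OC.2, an antigen that the submitters call ductal. One of them is labelled LAP+/OC.2+ (OC.2-positive below) and the other LAP+/OC.2- (OC.2-negative below), and the labels name no agent or engineered allele for any group. The isolation text is the same for both fetal groups and names a double positive selection, while the description field of the LAP+/OC.2+ arrays has LAP-OC2+. The grouping therefore follows titles and cell type labels. No label used here states the animals' sex or whether animals were pooled. The series' design text calls the preparations biological replicates.

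Cholesterol is built in the cytosol and the endoplasmic reticulum from acetyl-CoA through mevalonate, isoprenoid diphosphates, squalene and lanosterol. Fatty acids are built from the same acetyl-CoA through malonyl-CoA and are then elongated and desaturated, and in the liver much of both products leaves in lipoproteins or bile. SREBP transcription factors drive many of these genes: Scap escorts the SREBP precursor to the Golgi for cleavage, and the Insig proteins hold it back in the endoplasmic reticulum when sterols are plentiful.

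The arrays of a group were alike (Pearson correlation of log2 intensity over genes 0.989 to 0.994), and arrays of different groups correlated at 0.715 to 0.887. The labelled cell type was checked with marker lists. All 10 hepatocyte markers lay lower on the OC.2-positive than on the OC.2-negative arrays, with a summed intensity of 85379 to 92412 on the adult arrays, 76505 to 82592 on the OC.2-negative arrays and 33554 to 37086 on the OC.2-positive arrays. In OC.2-positive against OC.2-negative cells the log2 difference was -0.32 ± 0.08 (adjusted p = 0.00514) for Alb (albumin) and -2.60 ± 0.10 (adjusted p = 3.63e-10) for Hnf4a, a nuclear receptor on which much of the hepatocyte programme depends. Summed intensity of the 10 measured erythroid markers was 693 to 750 (adult), 11373 to 14023 (OC.2-negative) and 29607 to 30098 (OC.2-positive), and all 10 were higher in OC.2-positive than in OC.2-negative cells. That of the 10 granulocyte markers was 548 to 605, 620 to 688 and 17886 to 20146 in the same order, and 9 of the 10 were higher in OC.2-positive than in OC.2-negative cells. All 6 measured endothelial markers were lower in OC.2-positive than in OC.2-negative cells, with sums of 3286 to 4416 on the OC.2-negative and 563 to 575 on the OC.2-positive arrays. The adult endothelial sum was 660 to 862. Mesenchymal markers (8 measured) summed to 935 to 1033 in adult, 4540 to 5282 in OC.2-negative and 3357 to 4083 in OC.2-positive samples. Most of the OC.2-positive mesenchymal sum came from Vim alone. On the log2 scale Vim read 7.01 to 7.41 on adult, 11.08 to 11.42 on OC.2-negative and 11.30 to 11.65 on OC.2-positive arrays. The 8 macrophage markers summed to 881 to 944, 1425 to 1810 and 1205 to 1356 in the order adult, OC.2-negative, OC.2-positive. For the 6 measured ductal markers the sums were 380 to 403, 510 to 686 and 445 to 467. Of the ductal markers 3, among them Krt19 (1.9-fold), were higher in OC.2-negative cells than in adult hepatocytes (23.7% of all genes). In OC.2-positive against OC.2-negative cells 2, Krt19 (1.47-fold) again among them, were lower. In that comparison 20.3% of all genes were called higher and 18.2% lower, which is the background for its marker counts above. Against adult hepatocytes, OC.2-positive cells were higher in 2 ductal markers (32% of all genes), including Krt19 (1.29-fold). They were lower in 1 (23.4% of all genes), Epcam (1.19-fold). Krt19 lay at 5.56 to 6.62 and Epcam at 5.49 to 5.92 over all arrays on the log2 scale, where array medians over all genes were 6.59 to 6.72. No detection call exists, so these levels cannot show whether a dim gene was expressed. In RNA of mixed cells, fewer cells of a type and less RNA per cell cannot be told apart, and this holds for every difference below.

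Promoter sequences of 29 of the 36 listed genes were found in RefSeq (GRCr8), each running from 250 bases before the start of the gene to 50 after it. They are shown for 4 genes on which the results turn: Insig1 and Insig2, paralogues whose levels differed in pattern, Msmo1, with the lowest difference of OC.2-positive against OC.2-negative cells, and Thrsp, with the lowest difference of fetal against adult cells. Capitals mark CCAAT, the letters bound by NF-Y, and GGGCGG, the letters bound by Sp1, on either strand.
Insig1 (chr4:8057720-8058019, minus strand): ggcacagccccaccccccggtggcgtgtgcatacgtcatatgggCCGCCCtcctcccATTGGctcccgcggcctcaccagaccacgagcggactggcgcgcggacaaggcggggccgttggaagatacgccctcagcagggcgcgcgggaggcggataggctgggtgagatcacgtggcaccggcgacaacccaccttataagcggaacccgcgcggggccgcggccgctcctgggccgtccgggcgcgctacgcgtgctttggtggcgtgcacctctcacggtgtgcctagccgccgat
Insig2 (chr13:35040049-35040348, minus strand): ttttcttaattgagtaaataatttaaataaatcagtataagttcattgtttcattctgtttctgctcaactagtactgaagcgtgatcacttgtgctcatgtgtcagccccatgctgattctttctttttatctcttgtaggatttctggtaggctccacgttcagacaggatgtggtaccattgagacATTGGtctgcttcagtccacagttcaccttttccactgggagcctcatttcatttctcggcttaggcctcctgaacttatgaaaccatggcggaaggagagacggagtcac
Msmo1 (chr16:29746863-29747162, plus strand): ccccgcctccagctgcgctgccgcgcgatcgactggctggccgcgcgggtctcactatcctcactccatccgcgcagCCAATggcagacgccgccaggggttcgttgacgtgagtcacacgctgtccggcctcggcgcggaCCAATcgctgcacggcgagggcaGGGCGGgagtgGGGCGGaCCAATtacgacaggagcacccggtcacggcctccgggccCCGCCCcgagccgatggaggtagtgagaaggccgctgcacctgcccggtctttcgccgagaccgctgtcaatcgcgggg
Thrsp (chr1:161138915-161139214, minus strand): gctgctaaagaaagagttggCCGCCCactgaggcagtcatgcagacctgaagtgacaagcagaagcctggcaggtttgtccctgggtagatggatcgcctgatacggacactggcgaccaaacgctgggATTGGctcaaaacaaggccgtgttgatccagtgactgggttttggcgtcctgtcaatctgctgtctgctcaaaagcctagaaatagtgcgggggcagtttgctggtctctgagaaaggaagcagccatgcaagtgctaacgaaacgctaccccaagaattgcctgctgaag
These windows hold 1 CCAAT and 1 GGGCGG for Insig1, 1 CCAAT for Insig2, 3 of each for Msmo1 and 1 of each for Thrsp. NF-Y and Sp1 are known partners of SREBP at promoters. Over the 29 genes, 22 (75.9%) had CCAAT, against 37.5% of all 33469 promoters and 39% of those of measured genes. GGGCGG was in 22 of the 29 as well, against 33.1% of all promoters and 50.8% of those of measured genes. The sterol regulatory element written as TCACNCCAC was in 0 of the 29 and in 1.12% of all promoters, and its looser form TCACNCNAC, which includes every TCACNCCAC, in 0 and 2.48%. The E-box CACGTG was in 4 of the 29 (13.8%), namely Elovl5, Insig1, Sc5d and Scap. It was in 6.42% of all promoters and in 8.05% of those of measured genes. Both strands were searched, and a match is a run of letters, not a binding site. The windows follow annotated gene starts, and the starts used in these cells were not measured. In particular, the Insig2 window may not cover the promoter of the insulin-repressed liver transcript named below.

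In OC.2-positive against OC.2-negative fetal cells, 11 of 11 genes from squalene to cholesterol and 5 of 7 mevalonate and isoprenoid genes were lower. So were 4 of 5 SREBP regulators and sterol carriers, 3 of 6 genes of fatty acid synthesis and 4 of 5 of elongation and desaturation. Of the 34 genes 27 fell at a limma adjusted p under 0.05, where 18.2% of all genes were called lower, and 17 of them fell at least 2-fold, as 6.63% of all genes did. None rose (0 at that threshold, against 20.3% of all genes, and 3.69% of all genes at least 2-fold), while 1, Ggps1, was higher at an unadjusted p under 0.05. The median log2 difference was -0.98, beside 0.04 over all genes, and for 28 genes the groups' arrays did not overlap, as they did not for 46.5% of all genes. Beside this, the median log2 difference was -1.96 for the 10 hepatocyte markers, 1.72 for the erythroid, 4.29 for the granulocyte, -2.37 for the endothelial and -0.63 for the mesenchymal markers, of which 7 of 8 were lower. The part of these cell types in the differences was not tested.

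In OC.2-negative fetal cells against adult hepatocytes, sterol enzymes lay on either side of the adult level, while genes of fatty acid synthesis were lower. Of the 34 genes 6 were higher (background 23.7% of all genes) and 21 lower (background 20.9%), and 12 of the latter and 1 of the former differed at least 2-fold, as 6.58% and 4.06% of all genes did. The split depended on the scaling, with 11 higher and 18 lower after a repeated quantile normalization. The median was -0.48, or -0.55 relative to the 0.07 median of all genes, which moved to -0.04 with median centring. Over all genes, 3431 were called higher and 3027 lower, against 2324 and 3773 with median centring. Hepatocyte markers had a median of -0.14 and erythroid markers of 2.31. Markers of other cells were higher too: 6 of 6 endothelial (median 1.80), 7 of 8 mesenchymal (median 1.12), 5 of 8 macrophage (median 0.51) and 4 of 10 granulocyte markers (median 0.17). The part of these cells was not tested. The groups' arrays did not overlap for 27 of the 34 genes, nor for 51.4% of all genes.

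In OC.2-positive fetal cells against adult hepatocytes, 31 of the 34 genes fell (background 23.4%), 25 of them at least 2-fold (11.1% of all genes), and Elovl6 rose (background 32% of all genes, 7.82% at least 2-fold). The median was -1.83, or -1.94 relative to the 0.11 median of all genes, which moved to -0.00 with cyclic loess. Arrays did not overlap between the groups for 32 of the 34 genes, nor for 62.2% of all genes. Medians were -1.66 for the hepatocyte, 4.36 for the erythroid, 4.51 for the granulocyte, -0.20 for the endothelial, 0.33 for the mesenchymal and 0.31 for the macrophage markers, and their part was not tested. The 3 comparisons share arrays, so their values are set side by side and are not independent of each other.

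**Figure D1:**
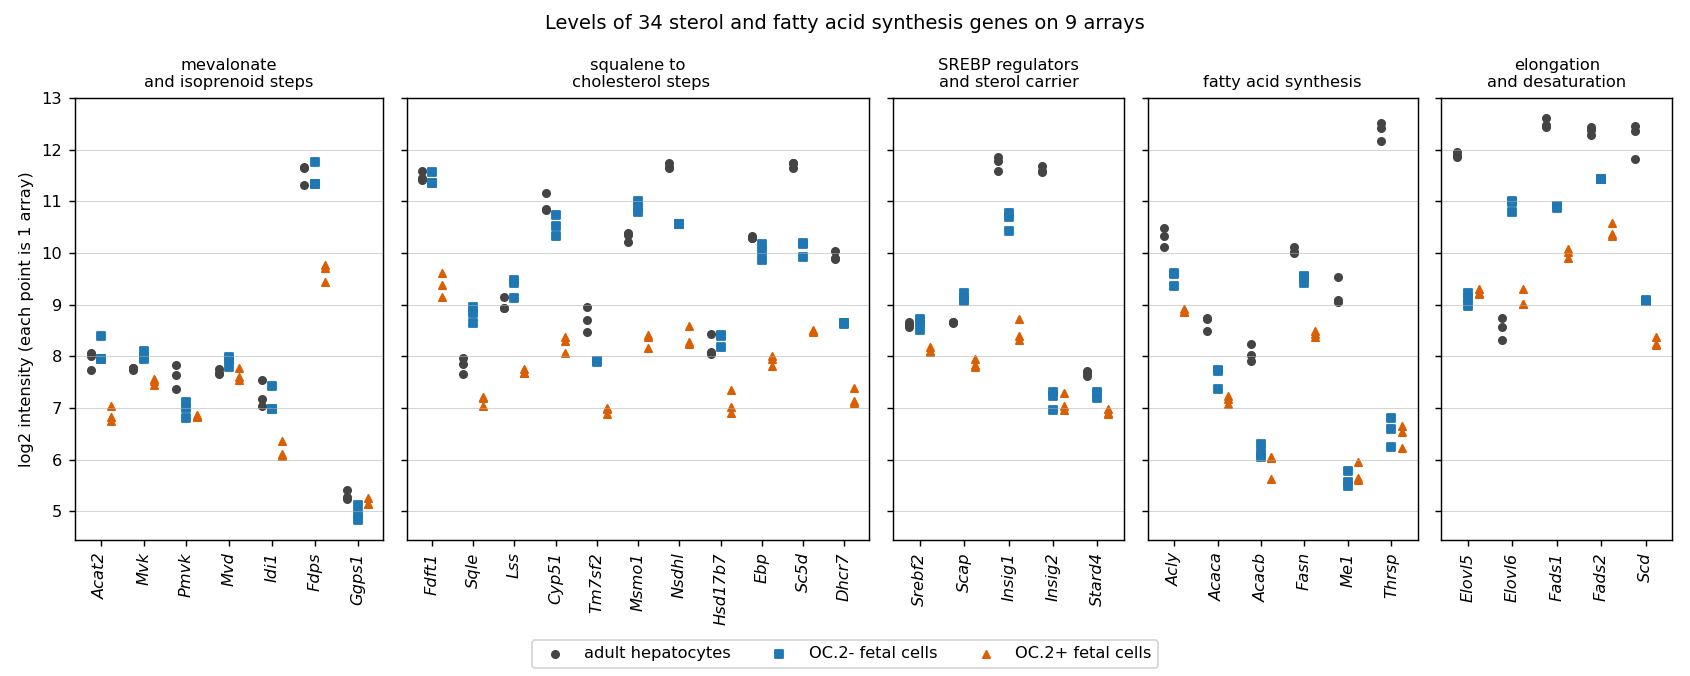
Log2 intensity of the 34 genes (vertical axis) on each of the 9 arrays, in panels by role; circles are adult hepatocytes, squares OC.2-negative and triangles OC.2-positive fetal cells, 3 arrays each. The 3 OC.2-positive triangles lie lowest for each of the 11 genes of the squalene to cholesterol panel, while for Insig2, Me1 and Thrsp the 6 fetal points lie together far below the adult ones.

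The 11 genes from squalene to cholesterol all fell in OC.2-positive against OC.2-negative cells, where 18.2% of all genes fell. Of the 11, 10 fell at least 2-fold, as 6.63% of all genes did. The 11 had a median of -1.67 and a range of -2.57 to -0.96. Msmo1, a methylsterol oxidase that acts after lanosterol demethylation, had log2 intensities of 10.22, 10.35 and 10.38 on the adult arrays, 10.88, 11.00 and 10.80 on the OC.2-negative arrays and 8.42, 8.17 and 8.38 on the OC.2-positive arrays. Its OC.2-negative arrays were highest and its OC.2-positive arrays lowest, with no overlap between any of the groups. It was 5.95-fold (95% interval 5.18 to 6.83, adjusted p = 2.74e-10) lower in OC.2-positive than in OC.2-negative cells and 1.49-fold (95% interval 1.3 to 1.71, adjusted p = 0.000189) higher in OC.2-negative cells than in adult hepatocytes. Cyp51, the lanosterol demethylase, read 10.86, 10.83 and 11.16 on the adult arrays, 10.53, 10.74 and 10.33 on the OC.2-negative arrays and 8.29, 8.07 and 8.37 on the OC.2-positive arrays. The fall from OC.2-negative to OC.2-positive cells was 4.87-fold (95% interval 4.04 to 5.88, adjusted p = 9.97e-09), wide of any overlap. Against adult hepatocytes the OC.2-negative cells were lower by a narrow margin with a log2 difference of -0.42 ± 0.12 (adjusted p = 0.0157), which turned to 0.04 after repeated quantile normalization. Leaving out the third adult array or the third OC.2-negative array ended that call (adjusted p = 0.0717 and 0.0713). Nsdhl, the dehydrogenase that removes sterol methyl groups after oxidation, stood at 11.74, 11.68 and 11.64 on the adult arrays, 10.56, 10.56 and 10.56 on the OC.2-negative arrays and 8.59, 8.23 and 8.27 on the OC.2-positive arrays. Its 3 groups formed separate steps, adult highest and OC.2-positive lowest. The step from OC.2-negative to OC.2-positive cells was 4.58-fold (95% interval 3.97 to 5.28, adjusted p = 1.34e-09) and that from adult to OC.2-negative cells 2.18-fold (95% interval 1.89 to 2.52, adjusted p = 6.07e-07).

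Sqle, the squalene epoxidase that is a control point of the sterol branch, gave 7.66, 7.84 and 7.97 on the adult arrays, 8.85, 8.96 and 8.64 on the OC.2-negative arrays and 7.04, 7.21 and 7.19 on the OC.2-positive arrays. All OC.2-negative arrays lay above all adult arrays, and all OC.2-positive arrays below them. It was 1.99-fold (95% interval 1.7 to 2.32, adjusted p = 4.86e-06) higher in OC.2-negative cells than in adult hepatocytes and 3.18-fold (95% interval 2.71 to 3.71, adjusted p = 3.43e-08) lower in OC.2-positive than in OC.2-negative cells. Fdft1, the squalene synthase, and Ebp, the sterol isomerase, fell 4.14-fold and 4.29-fold from OC.2-negative to OC.2-positive cells. In OC.2-negative cells against adult hepatocytes they differed by -0.06 ± 0.11 (adjusted p = 0.696) and -0.28 ± 0.09 (adjusted p = 0.022) on the log2 scale, and turned to 0.31 (adjusted p = 0.0295) and 0.20 (adjusted p = 0.0592) after repeated quantile normalization. Ebp also missed the threshold in this comparison after cyclic loess (adjusted p = 0.131), and so it did without the first adult array (adjusted p = 0.0599) and without the third OC.2-negative array (adjusted p = 0.0805). Lss, which closes the rings of lanosterol, fell 3.1-fold from OC.2-negative to OC.2-positive cells, and Hsd17b7, a reductase of the demethylation steps, 2.36-fold. In OC.2-negative cells against adult hepatocytes, Lss differed by 0.33 ± 0.10 (adjusted p = 0.0191) and Hsd17b7 by 0.14 ± 0.13 (adjusted p = 0.422), which passed after repeated quantile normalization (0.40, adjusted p = 0.016). The Lss call ended with median centring and without either of adult replicates 1 and 2 and OC.2-negative replicates 1 and 2 (adjusted p 0.063 to 0.11).

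Sc5d, Dhcr7 and Tm7sf2 stepped down from adult to OC.2-negative cells and again to OC.2-positive cells. Sc5d, a sterol desaturase, was 3.07-fold lower in OC.2-negative cells than in adult hepatocytes and 3.05-fold lower again in OC.2-positive cells. Dhcr7, the reductase that makes cholesterol from its dehydro precursor, was 2.46-fold and 2.7-fold lower in the same order. For Tm7sf2, a sterol reductase of the steps after lanosterol, these values were 1.74-fold and 1.94-fold. All 6 of these falls had limma adjusted p of 3.67e-05 or lower. Over the 11 genes, 3 (Sqle, Msmo1 and Lss) were higher in OC.2-negative cells than in adult hepatocytes, a share near the 23.7% of all genes. In the same comparison 6 were lower, against 20.9% of all genes. The calls of Lss, Cyp51 and Ebp among these were lost under some alternatives, as given above. All 11 were lower in OC.2-positive cells than in adult hepatocytes (23.4% of all genes), from 1.6-fold for Sqle to 9.99-fold for Nsdhl.

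**Figure D2:**
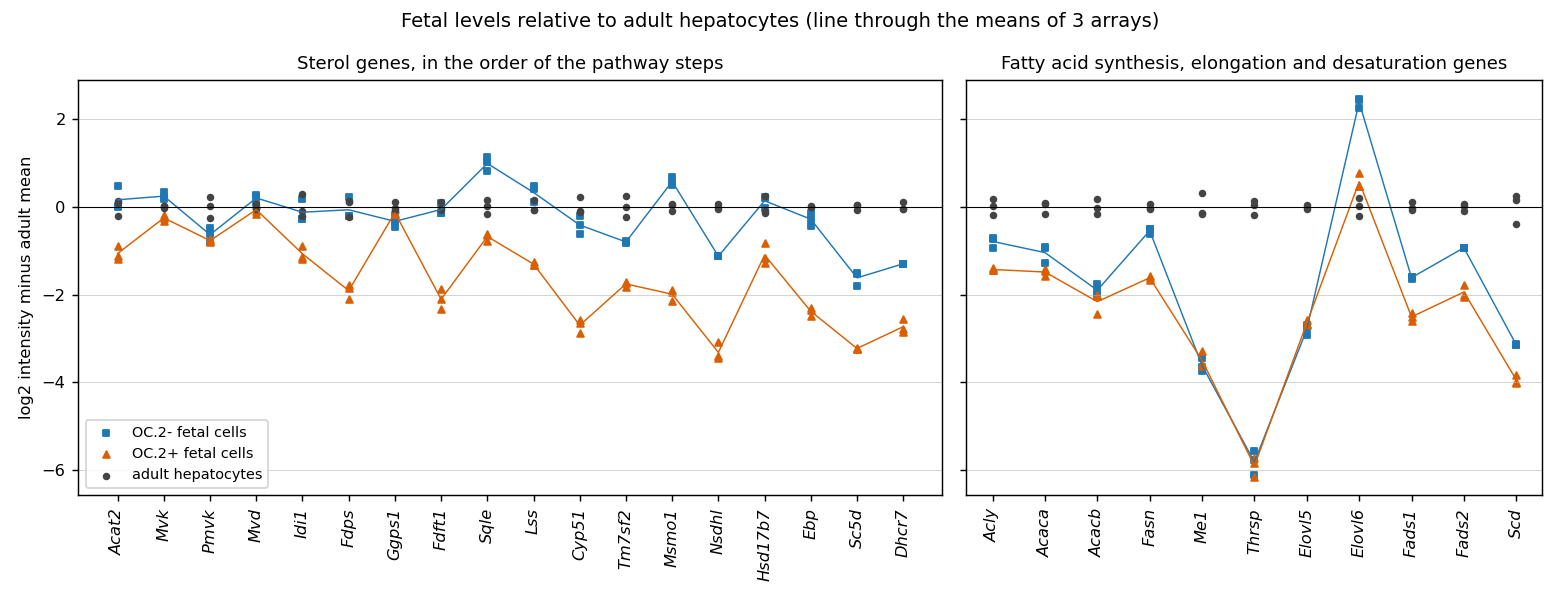
Log2 intensity minus the gene's adult mean (vertical axis) for the sterol genes in the order of their steps (left; Ggps1 sits on a side branch) and for the fatty acid genes (right); points are arrays, 3 per group, and lines join group means only to guide the eye. OC.2-negative cells lie above the adult level for Sqle and Msmo1 and below it for Sc5d and Dhcr7, and Elovl6 is the gene on the right with both fetal groups above the adult level.

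Of the 7 measured genes of the mevalonate and isoprenoid steps, 5 fell in OC.2-positive against OC.2-negative cells, where 18.2% of all genes fell. Of these 5, 2 fell at least 2-fold, as 6.63% of all genes did. Fdps, which makes farnesyl diphosphate, was 3.59-fold (95% interval 2.93 to 4.41, adjusted p = 1.65e-07) lower, and its arrays ranged from 9.44 to 9.77 in OC.2-positive and from 11.34 to 11.77 in OC.2-negative cells. Acat2, the cytosolic thiolase that begins the pathway, was 2.34-fold lower and Idi1, the isopentenyl diphosphate isomerase, 1.93-fold lower. The kinase Mvk fell 1.41-fold. Mvd, the diphosphomevalonate decarboxylase, fell 1.2-fold, a call lost on leaving out OC.2-positive replicate 1 or 2 or OC.2-negative replicate 2 or 3 (adjusted p 0.0756 to 0.11). Pmvk, the second mevalonate kinase, differed by -0.13 ± 0.12 (adjusted p = 0.435), and Ggps1, which feeds protein prenylation, by 0.20 ± 0.09 (adjusted p = 0.109). Ggps1 was dim, at 4.84 to 5.40 on all arrays, and its difference passed without OC.2-negative replicate 2 (0.28, adjusted p = 0.0332).

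Against adult hepatocytes, OC.2-negative cells were lower in Pmvk (1.55-fold) and Ggps1 (1.26-fold) and higher in Mvk (1.18-fold). The Mvk call ended with median centring (adjusted p = 0.169) and without OC.2-negative replicate 2 (adjusted p = 0.0691). The other 4 did not pass: the log2 difference was 0.16 ± 0.14 for Acat2, -0.12 ± 0.15 for Idi1, -0.07 ± 0.14 for Fdps and 0.20 ± 0.09 for Mvd. After repeated quantile normalization, Acat2 and Mvd were called higher (0.36 and 0.36), and Mvd also after cyclic loess (0.32, adjusted p = 0.0116) and without OC.2-negative replicate 1 (0.26, adjusted p = 0.0479). In OC.2-positive cells against adult hepatocytes 5 of the 7 fell (23.4% of all genes), from 1.19-fold for Mvk to 3.76-fold for Fdps. In that comparison Mvd and Ggps1 differed by -0.07 ± 0.09 (adjusted p = 0.541) and -0.13 ± 0.09 (adjusted p = 0.237). Under repeated quantile normalization the Mvk call ended (adjusted p = 0.301) and Ggps1 was called lower (-0.28, adjusted p = 0.0305), as Ggps1 was after cyclic loess (-0.26, adjusted p = 0.0393).

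Among the regulators, Insig1 and Insig2 differed in where their steps lay. Insig1, itself a target of SREBP, had intensities of 11.85, 11.59 and 11.79 on the adult arrays, 10.70, 10.78 and 10.43 on the OC.2-negative arrays and 8.32, 8.39 and 8.72 on the OC.2-positive arrays. Adult arrays were highest and OC.2-positive arrays lowest, with the OC.2-negative arrays between them and no overlap. It was 2.15-fold (95% interval 1.79 to 2.59, adjusted p = 8.69e-06) lower in OC.2-negative cells than in adult hepatocytes and 4.48-fold (95% interval 3.72 to 5.4, adjusted p = 1.52e-08) lower again in OC.2-positive cells. Insig2, which in rodent liver has a transcript of its own that insulin represses, read 11.59, 11.57 and 11.69 on the adult arrays, 7.32, 7.24 and 6.97 on the OC.2-negative arrays and 6.95, 7.29 and 7.04 on the OC.2-positive arrays. The 6 fetal arrays overlapped between the fetal groups and lay far below the 3 adult arrays. It was 21.8-fold (95% interval 18.5 to 25.7, adjusted p = 5.11e-12) lower in OC.2-negative and 23-fold (95% interval 19.5 to 27.1, adjusted p = 1.48e-12) lower in OC.2-positive cells than in adult hepatocytes. Between the fetal groups it differed by -0.08 ± 0.11 on the log2 scale (95% interval -0.32 to 0.16, adjusted p = 0.651).

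Scap, the escort of SREBP, gave 8.66, 8.66 and 8.64 on the adult arrays, 9.14, 9.22 and 9.07 on the OC.2-negative arrays and 7.94, 7.79 and 7.84 on the OC.2-positive arrays. OC.2-negative arrays were highest and OC.2-positive arrays lowest. It was 1.4-fold (95% interval 1.25 to 1.57, adjusted p = 0.00015) higher in OC.2-negative cells than in adult hepatocytes and 2.43-fold (95% interval 2.17 to 2.73, adjusted p = 2.02e-08) lower in OC.2-positive than in OC.2-negative cells. Srebf2, the SREBP gene most tied to sterol synthesis, ran at 8.60, 8.57 and 8.66 on the adult arrays, 8.66, 8.72 and 8.51 on the OC.2-negative arrays and 8.10, 8.18 and 8.09 on the OC.2-positive arrays. Adult and OC.2-negative arrays overlapped, and OC.2-positive arrays lay below both. The log2 difference was -0.51 ± 0.08 (adjusted p = 0.000149) between the fetal groups. In OC.2-negative cells against adult hepatocytes it was 0.02 ± 0.08 (adjusted p = 0.843), and this passed after repeated quantile normalization (0.37, adjusted p = 0.000901). That of OC.2-positive cells against adult hepatocytes, -0.49 ± 0.08 (adjusted p = 0.000143), missed the threshold under the same scaling (adjusted p = 0.112). Stard4, a cytosolic sterol carrier, fell 1.33-fold from adult to OC.2-negative and 1.26-fold from OC.2-negative to OC.2-positive cells.

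The 6 genes of fatty acid synthesis were all lower in OC.2-negative cells than in adult hepatocytes (20.9% of all genes), with a median of -1.47. Thrsp (Spot 14), a small protein that responds to thyroid hormone and carbohydrate and promotes lipogenesis, read 12.51, 12.42 and 12.18 on the adult arrays, 6.6, 6.25 and 6.81 on the OC.2-negative arrays and 6.53, 6.65 and 6.22 on the OC.2-positive arrays. Fetal arrays of both kinds overlapped near the median of all genes on the array, and adult arrays stood far above. It was 56.5-fold (95% interval 45.2 to 70.6, adjusted p = 7.25e-12) lower in OC.2-negative and 60.0-fold (95% interval 48 to 74.9, adjusted p = 2.07e-12) lower in OC.2-positive cells. Me1, the cytosolic malic enzyme that supplies NADPH, stood at 9.06, 9.54 and 9.09 on the adult arrays, 5.78, 5.49 and 5.57 on the OC.2-negative arrays and 5.95, 5.60 and 5.63 on the OC.2-positive arrays. Again the fetal arrays overlapped each other and no adult array, and the falls were 12.3-fold (95% interval 9.97 to 15.1, adjusted p = 2.91e-10) and 11.3-fold (95% interval 9.21 to 13.9, adjusted p = 1.24e-10). Folds of genes this dim in the fetal cells can be understated. Neither gene passed between the fetal groups, at -0.09 ± 0.15 (adjusted p = 0.726) for Thrsp and 0.11 ± 0.14 (adjusted p = 0.598) for Me1.

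Fasn and the carboxylases carry out the synthesis itself. Fasn, the fatty acid synthase, had intensities of 10.01, 10.12 and 10.02 on the adult arrays, 9.54, 9.55 and 9.42 on the OC.2-negative arrays and 8.48, 8.38 and 8.44 on the OC.2-positive arrays. Its groups did not overlap and lay in the order adult, OC.2-negative, OC.2-positive. It was 2.11-fold (95% interval 1.88 to 2.36, adjusted p = 1.06e-07) lower in OC.2-positive than in OC.2-negative cells. The step from adult to OC.2-negative cells was 1.46-fold (95% interval 1.3 to 1.63, adjusted p = 5.87e-05), and the log2 difference was -0.09 after repeated quantile normalization (adjusted p = 0.318). Acaca, the acetyl-CoA carboxylase of the cytosol, gave 8.72, 8.73 and 8.49 on the adult arrays, 7.71, 7.73 and 7.37 on the OC.2-negative arrays and 7.17, 7.07 and 7.23 on the OC.2-positive arrays. Here the step from adult to OC.2-negative cells was 2.06-fold (95% interval 1.75 to 2.43, adjusted p = 4.2e-06) and that to OC.2-positive cells 1.36-fold (95% interval 1.16 to 1.6, adjusted p = 0.0049), both downward and with no overlap. Acacb, the carboxylase at mitochondria that restrains fatty acid oxidation, was 3.74-fold lower in OC.2-negative cells than in adult hepatocytes and differed by -0.26 ± 0.12 (adjusted p = 0.131) between the fetal groups. Acly, which makes cytosolic acetyl-CoA from citrate, was 1.73-fold lower in OC.2-negative cells and 1.56-fold lower again in OC.2-positive cells.

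**Figure D3:**
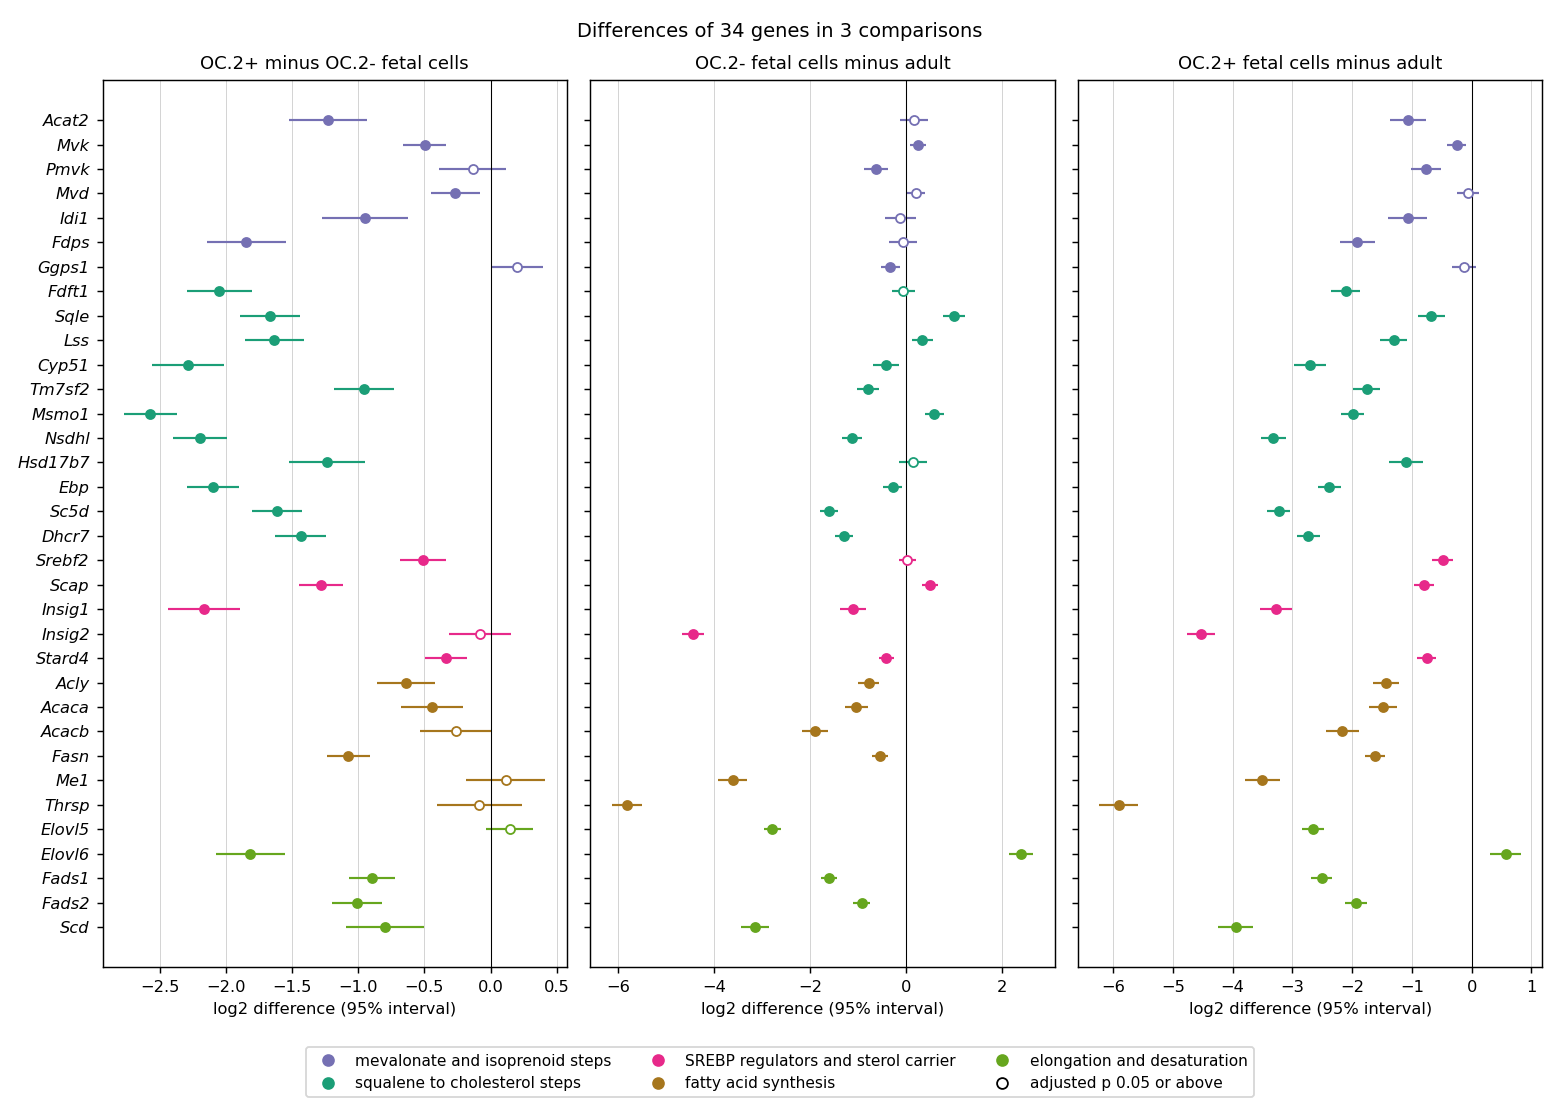
Log2 difference of each gene (horizontal axis, with its 95% interval from limma) in the 3 comparisons, coloured by role; open circles did not pass an adjusted p of 0.05, and the panels have different scales. In the left panel the squalene to cholesterol genes lie between -2.57 and -0.96, and in the middle panel Thrsp lies at -5.82 and Elovl6 at 2.39.

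Of the 5 elongases and desaturases, 4 were lower and Elovl6 was higher in both fetal groups than in adult hepatocytes. Among all genes, 20.9% were lower and 23.7% higher in OC.2-negative cells, and 23.4% and 32% in OC.2-positive cells. Elovl6, which elongates the product of fatty acid synthase to stearate, gave 8.56, 8.74 and 8.32 on the adult arrays, 11.01, 10.99 and 10.79 on the OC.2-negative arrays and 9.31, 9.01 and 9.01 on the OC.2-positive arrays. OC.2-negative arrays were highest and adult arrays lowest, and no groups overlapped. It was 5.23-fold (95% interval 4.37 to 6.26, adjusted p = 3.85e-09) higher in OC.2-negative and 1.49-fold (95% interval 1.24 to 1.78, adjusted p = 0.00112) higher in OC.2-positive cells than in adult hepatocytes, and 3.52-fold (95% interval 2.94 to 4.21, adjusted p = 5.4e-08) lower in OC.2-positive than in OC.2-negative cells. Scd, the stearoyl-CoA desaturase of adult liver, had 12.37, 12.46 and 11.83 on the adult arrays, 9.08, 9.06 and 9.08 on the OC.2-negative arrays and 8.21, 8.23 and 8.38 on the OC.2-positive arrays. Adult arrays stood highest, and adult replicate 3 was the lowest of them. The gene was 8.85-fold (95% interval 7.22 to 10.8, adjusted p = 9.43e-10) lower in OC.2-negative cells than in adult hepatocytes and 1.74-fold (95% interval 1.42 to 2.13, adjusted p = 0.000315) lower again in OC.2-positive cells. Scd2, the isoform known from fetal and non-hepatic tissue of rodents and no member of the list, read 6.65, 5.59 and 6.27 on the adult arrays, 11.83, 11.84 and 11.69 on the OC.2-negative arrays and 11.48, 11.37 and 11.37 on the OC.2-positive arrays. It was 49-fold (95% interval 36.7 to 65.6, adjusted p = 1.2e-10) higher in OC.2-negative and 37.6-fold (95% interval 28.1 to 50.3, adjusted p = 6.88e-11) higher in OC.2-positive cells than in adult hepatocytes. Between the fetal groups it differed by -0.38 ± 0.19 (adjusted p = 0.154). Close relatives such as these can share probe signal, which was not measured here.

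Elovl5, an elongase of polyunsaturated fatty acids, was 6.95-fold lower in OC.2-negative and 6.29-fold lower in OC.2-positive cells than in adult hepatocytes. Between the fetal groups its log2 difference was 0.14 ± 0.08 (adjusted p = 0.211), and 2 scalings called it higher, repeated quantile normalization at 0.21 (adjusted p = 0.0264) and cyclic loess at 0.33 (adjusted p = 0.00167). The desaturases of polyunsaturated fatty acids, Fads1 and Fads2, were 3.06-fold and 1.91-fold lower in OC.2-negative cells than in adult hepatocytes. In OC.2-positive against OC.2-negative cells they fell a further 1.86-fold and 2.01-fold.

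Ordered by group means, 21 of the 34 genes ran adult, OC.2-negative, OC.2-positive from high to low, an order that 18.7% of all genes had. For 14 of the 21 both steps passed the test. Another 9 genes were highest in OC.2-negative and lowest in OC.2-positive cells, as 6.7% of all genes were. Both steps passed for 5 of them: Sqle, Lss, Mvk, Msmo1 and Scap. The share of all genes that passed both steps was not computed, so neither count of both steps has a background here. Ggps1, Me1 and Elovl5 ran adult, OC.2-positive, OC.2-negative, as 10.6% of all genes did, with no difference past the threshold between the fetal groups. Elovl6 was the 1 gene of the 34 to run OC.2-negative, OC.2-positive, adult, an order that 17% of all genes had.

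Other genes of the same pathways were described from lists of named genes, whose counts stand beside the shares of all genes called: 20.3% higher and 18.2% lower in OC.2-positive against OC.2-negative cells, and 23.7% higher and 20.9% lower in OC.2-negative cells against adult hepatocytes. Of 14 measured regulators of SREBP, LXR, ChREBP and AMPK, 10 were lower and none higher in OC.2-negative cells than in adult hepatocytes by limma (1 was higher at an unadjusted p under 0.05), with a median of -0.77. In OC.2-positive against OC.2-negative cells 2 rose and 5 fell (median -0.02). Prkaa2, a catalytic subunit of AMP-activated kinase, was 12.7-fold (95% interval 10.7 to 14.9, adjusted p = 3.31e-11) lower in OC.2-negative cells than in adult hepatocytes, with 9.69 to 9.72 on the adult and 5.95 to 6.12 on the OC.2-negative arrays. Nr1h3, the sterol-sensing receptor LXR alpha, was 3.08-fold (95% interval 2.46 to 3.86, adjusted p = 1.38e-06) lower in OC.2-positive than in OC.2-negative cells.

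Of 9 other sterol and isoprenoid genes, 1 rose and 4 fell in OC.2-positive against OC.2-negative cells (median -0.07; all genes 20.3% and 18.2%). In OC.2-negative cells against adult hepatocytes 2 were higher, a share near that of all genes (23.7%), and 4 lower (20.9% of all genes), with a median of -0.14. Cyb5b, a cytochrome b5, was 2.84-fold lower in OC.2-positive than in OC.2-negative cells. Cyb5r3, the reductase of cytochrome b5, was 3.31-fold lower in OC.2-negative cells than in adult hepatocytes and 1.55-fold higher in OC.2-positive than in OC.2-negative cells. Of 17 other fatty acid and NADPH genes, 2 rose and 12 fell in OC.2-positive against OC.2-negative cells (median -0.66; all genes 20.3% and 18.2%). Against adult hepatocytes 3 were higher in OC.2-negative cells (23.7% of all genes) and 10 lower (20.9% of all genes), with a median of -0.48. Idh1, a cytosolic source of NADPH, was 7.15-fold (95% interval 6.01 to 8.5, adjusted p = 7.64e-10) lower in OC.2-positive than in OC.2-negative cells and differed by -0.11 ± 0.11 (adjusted p = 0.453) between OC.2-negative cells and adult hepatocytes.

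**Figure D4:**
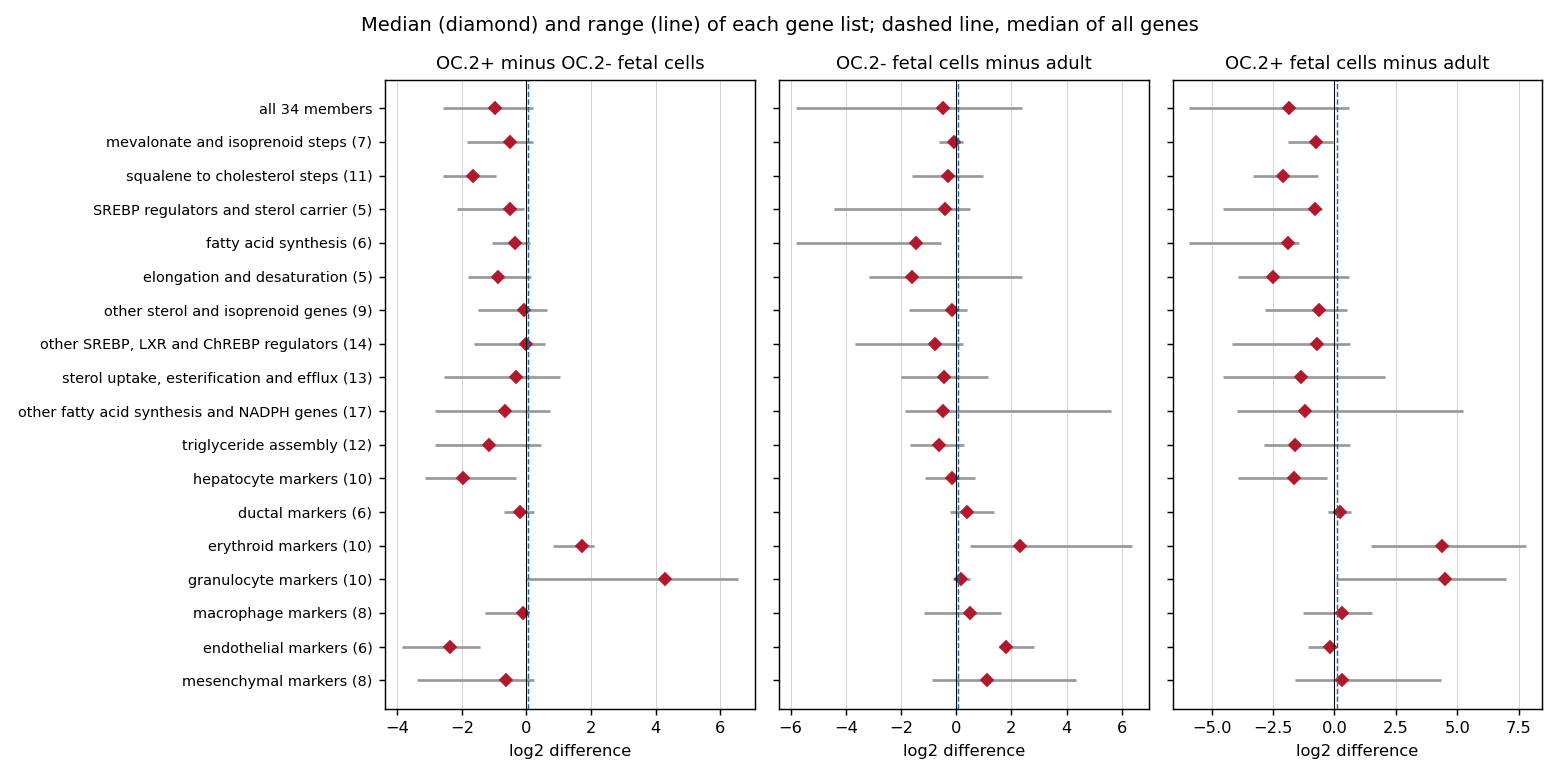
Median (diamond) and range (line) of the log2 differences within each gene list, with its number of measured genes, in the 3 comparisons; the dashed line is the median of all genes, and the panels have different scales. In OC.2-positive against OC.2-negative cells the squalene to cholesterol genes (median -1.67) and the hepatocyte markers (-1.96) lie to the left and the granulocyte markers (4.29) to the right.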

How the data were processed

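RNA of 3 adult hepatocyte, 3 OC.2-negative and 3 OC.2-positive preparations was hybridised to 1 array each. The deposited values are normalized intensities on a linear scale, made by the authors with Partek 6.6 and RMA, per the submitters' processing notes, which give no role or order. RMA as usually run makes arrays alike in distribution and shrinks differences of dim genes. The build used for probe mapping is not given in the sources used. Array medians of intensity lay at 79.5 to 81.0 (adult), 86.5 to 89.7 (OC.2-negative) and 87.7 to 88.9 (OC.2-positive). Precision is limited by the number of arrays, with a standard error of 0.095 for the log2 difference of the median gene.

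Of 28826 rows, 15209 had 1 gene symbol in the platform annotation, 306 several and 13311 none. The highest-mean row stood for a gene with several rows (494 genes), giving 14497 genes, with no filter on dim genes. Log2 values of all 9 arrays were fitted in limma 3.58.1 (R 4.3.3, lmFit and eBayes), with 6 residual degrees of freedom, 2-sided tests, and Benjamini-Hochberg adjustment over all genes. Calls were made at an adjusted p under 0.05. Levels are log2 intensities and differences are folds with 95% intervals or log2 differences ± SE. The members and lists were chosen with earlier results of these data known. Of the members, every array's value is given for the 4 highest and 4 lowest called differences of each comparison without overlap. It is given too for the regulators, Fasn, Acaca, Sqle and Scd. Exceptions are Mvd, Mvk and Stard4, which were among the 4 highest of a comparison and are given by fold or difference only. From each list of other genes, the called gene with the largest difference in each comparison is named. Promoters come from RefSeq (GRCr8).

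The fit was run on simulated data of 14497 genes, of which 200 were changed. It recovered 61% of changes of 0.5 log2 units and 95% of changes of 1 for OC.2-positive against OC.2-negative cells. These shares were 65% and 96% for OC.2-negative against adult cells, and 69% and 99% for OC.2-positive against adult cells. Unchanged genes called numbered 6, 11 and 9 in the same order. In the data themselves 5576 to 8034 genes were called, so these shares are not the recovery in these data. Alternatives were 3 other scalings, the removal of dim genes, averaged probe sets, another variance model, fits of the groups compared alone, the replicate number as a block, and leaving out each array in turn.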

Additional observations from a re-analysis of the deposited data

How the results depend on the processing

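Each result was recomputed under 17 alternatives per comparison, except Ggps1, which the filter on dim genes removed (16). Single genes stayed on their side of the threshold in 1698 of 1731 recomputations, 21 lost a call and 12 gained one. The sign turned in 12, of which 9 were called under neither setting. Called members kept call and direction under every alternative run for 26 genes lower in OC.2-positive against OC.2-negative cells, for 4 higher and 18 lower in OC.2-negative cells against adult hepatocytes, and for 1 higher and 29 lower in OC.2-positive cells against adult hepatocytes. Under repeated quantile normalization the 6 members higher in OC.2-negative cells than in adult hepatocytes became 11, the medians against adult hepatocytes moved to -0.31 (OC.2-negative) and -1.38 (OC.2-positive), and Cyp51, Ebp and Fdft1 turned to 0.042, 0.20 and 0.31 in OC.2-negative cells against adult hepatocytes. Uncalled values that turned sign in OC.2-negative cells against adult hepatocytes were Fdps (0.29 with that normalization, -0.21 to 0.0042 on leaving out single arrays), Srebf2 (-0.080 with median centring, -0.023 to 0.082 on leaving out single arrays) and Idi1 (-0.27 to 0.025 on leaving out single arrays). So did Mvd in OC.2-positive cells against adult hepatocytes (0.092 with that normalization) and Thrsp between the fetal groups (-0.24 to 0.042 on leaving out single arrays). Cyclic loess moved the OC.2-positive median to -1.67. The number of members higher in OC.2-positive than in OC.2-negative cells went from 0 to 1 under both of these scalings, and was 0 to 1 on leaving out single arrays (1 without OC.2-negative replicate 2). The causes were not tested. Deviations of same-numbered samples correlated at -0.226 to 0.106, and those of differently numbered samples at -0.16 to 0.285. No pairing by replicate number was seen, but with 3 arrays per group these values cannot exclude one. With the replicate block, 27 members were lower in OC.2-positive against OC.2-negative cells, 6 higher and 21 lower in OC.2-negative cells against adult hepatocytes, and 1 higher and 31 lower in OC.2-positive cells against adult hepatocytes, with 5416, 6199 and 7777 genes called (5576, 6458 and 8034 without it). Genes near or below the array median are limited by signal over background, for which no detection call exists. Examples are Ggps1, Me1, Thrsp, Acacb and Prkaa2 in fetal cells and Idi1 in OC.2-positive cells.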

Other observations

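Genes of triglyceride and lipoprotein assembly, which use the fatty acids made by the pathway, were described from a list of 12 measured genes. In OC.2-positive against OC.2-negative cells 9 fell and 1 rose (median -1.16), where 18.2% of all genes fell and 20.3% rose. In OC.2-negative cells against adult hepatocytes 9 were lower (median -0.63), as were 20.9% of all genes. Mttp, which loads lipid onto apolipoprotein B, had log2 intensities of 9.69, 9.90 and 9.69 on the adult arrays, 10.02, 10.20 and 9.88 on the OC.2-negative arrays and 7.30, 6.98 and 7.34 on the OC.2-positive arrays. It was 7.1-fold (95% interval 5.96 to 8.44, adjusted p = 7.89e-10) lower in OC.2-positive than in OC.2-negative cells and differed by 0.28 ± 0.12 (adjusted p = 0.0697) between OC.2-negative cells and adult hepatocytes. Dgat2, which makes triglyceride, was 7.3-fold lower in OC.2-positive cells than in adult hepatocytes. Cidec, a lipid droplet protein, was 3.19-fold lower in OC.2-negative cells than in adult hepatocytes.

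Of 13 measured genes of sterol uptake, esterification and efflux, 3 rose and 7 fell in OC.2-positive against OC.2-negative cells (median -0.34), where 20.3% of all genes rose and 18.2% fell. Against adult hepatocytes 5 were higher and 8 lower in OC.2-negative cells (median -0.44), beside 23.7% and 20.9% of all genes. Lcat, the plasma enzyme that esterifies cholesterol on lipoproteins, gave 12.36, 12.33 and 12.24 on the adult arrays, 10.34, 10.48 and 10.11 on the OC.2-negative arrays and 7.78, 7.80 and 7.71 on the OC.2-positive arrays. It was 4-fold (95% interval 3.47 to 4.61, adjusted p = 2.26e-09) lower in OC.2-negative cells than in adult hepatocytes and 5.83-fold (95% interval 5.06 to 6.72, adjusted p = 3.57e-10) lower again in OC.2-positive cells.

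A probe set annotated to both Srebf1 and its neighbour Pemt read 10.27, 10.19 and 10.26 on the adult arrays, 8.70, 8.73 and 8.55 on the OC.2-negative arrays and 7.62, 7.76 and 7.72 on the OC.2-positive arrays. Its signal cannot be divided between the genes. A second Insig1 probe set differed by -2.01 ± 0.08 in OC.2-positive against OC.2-negative cells and by -1.03 ± 0.08 in OC.2-negative cells against adult hepatocytes, beside -2.16 ± 0.12 and -1.11 ± 0.12 for the probe set used.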
